A study of Mus musculus with 8 samples.

Results

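Blood progenitors respond to a cytokine only if they carry its receptor. The 10 genes described here encode receptors for the cytokines in the medium of these cultures (SCF, Flt3 ligand, IL-11 and IL-3) and for the myeloid factors G-CSF, GM-CSF and M-CSF. They were found by matching the RefSeq accession of each non-control probe to the mouse symbols Kit, Flt3, Il3ra, Csf2rb, Csf2rb2, Il11ra1, Il6st, Csf3r, Csf2ra and Csf1r. All 10 genes had a probe, 14 probes in all of the 41174 on the array, and all 10 entered the test among 17301 genes.

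Kit, Flt3 and Csf1r are receptor tyrosine kinases, which pair up and phosphorylate themselves when their ligand binds. The others belong to the cytokine receptor family, which has no kinase domain of its own and signals through bound JAK kinases and STAT factors. An alpha chain such as Il3ra, Csf2ra or Il11ra1 binds 1 ligand, and a partner chain shared between ligands (Csf2rb or Il6st) carries the signal. In bone marrow Kit marks early progenitors and mast cells, Flt3 marks lymphoid and myeloid progenitors and dendritic cells, and Csf3r and Csf1r mark the granulocyte and the monocyte branch.

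The study reduced Pcgf1, a subunit of the Polycomb complex PRC1.1, in haematopoietic stem and progenitor cells (HSPCs) of the genotype Runx1 Δ/Δ. Bone marrow of 4 such mice on a mixed C57Bl/6 and 129SvJ background was depleted of lineage-positive cells and kept for 2 days in serum-free medium with mSCF (50 ng/ml), hFlt3 ligand (100 ng/ml), hIL-11 (100 ng/ml) and mIL-3 (10 ng/ml). Each mouse gave 1 culture with a control shRNA and 1 with a Pcgf1 shRNA, both delivered by retrovirus, and puromycin (5 µg/ml) was present for 36 h from 24 h after transduction. The control cultures therefore carried the Runx1 Δ/Δ genotype, the virus, the puromycin and the cytokines as well. Cells with intact Runx1 were not analysed here, the labels name no Cre line, age or second Pcgf1 shRNA, and each culture was a mixed population on 1 one-colour array.

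The arrays gave a usable signal for every receptor. Between 54.8% and 62.0% of the 43379 non-control spots of an array were well above background, and every spot of the 14 receptor probes was so on all 8 arrays, with 0 saturated and 0 marked as an outlier. Levels are log2 signals relative to the 75th percentile of their array, so a value of 1 lies 2-fold above that percentile, and levels of different probes are not compared. The number of arrays, 4 per group, limits the precision. Pcgf1 (chromosome 6, 83077552 to 83080855, GRCm38.p6) read −0.24, −0.23, −0.45 and −0.01 with the control shRNA in mice 1 to 4, and −1.63, −1.64, −1.74 and −1.35 with the Pcgf1 shRNA. The groups did not overlap, and the transcript was left at 39.0% of control (log2 change −1.36, SE 0.12, limma adjusted p 0.0197; exact two-sided permutation p = 0.0286, the smallest 4 against 4 allows). Without mouse 1, 2 or 3 the change was −1.34, −1.34 and −1.38, with adjusted p of 0.113, 0.352 and 0.0904 by limma. With mouse as a block the call was lost only without mouse 2 (adjusted p 0.0896, against 0.0372 without mouse 1, 0.0191 without mouse 3 and 0.0424 without mouse 4). All 9 genes of a fixed HSPC list were measured, among them Cd34. Cd34 rose (0.94, limma adjusted p 0.0251), and with mouse as a block Meis1 rose and Ly6a fell as well. Of all genes 0.595% rose without a block, and 2.91% rose and 2.42% fell with it.

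The receptor transcripts did not pass the test. With the Pcgf1 shRNA 0 of 10 rose or fell at an adjusted p of 0.05 (limma, 2 groups of 4, without a block), against 0.763% of all genes (0.595% rose and 0.168% fell), and 0 of 10 had an unadjusted p under 0.05, against 12.2% of all genes. With mouse as a block, which compares the 2 cultures of each animal, 0 of 10 passed as well, against 5.32% of all genes (2.91% rose and 2.42% fell), and 3 of 10 (Csf1r, Csf3r and Csf2ra) had an unadjusted p under 0.05, against 23.5%. The direction was the same in all 4 mice for 4 of 10 (Csf3r higher; Kit, Csf2ra and Csf1r lower), against 31.8% of all genes. The groups overlapped for all 10, whereas they did not overlap for 7.16% of all genes. The estimated change was below 0 for 9 of the 10 receptors and for 49.5% of all genes; its median was −0.12 over the receptors and 0.00 over all genes. Both values depended on the scaling and the mice: with arrays centred on their median 6 of 10 were below 0 with a median of −0.015, while the median of all genes moved to 0.10. Without mouse 3 the count was also 6, without mouse 1 it was 7, and without mouse 4 the median was −0.21. Since the receptors share arrays and cells, their signs are not independent of each other. In bulk RNA fewer cells that carry a receptor and less receptor RNA per cell cannot be told apart.

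**Figure D1:**
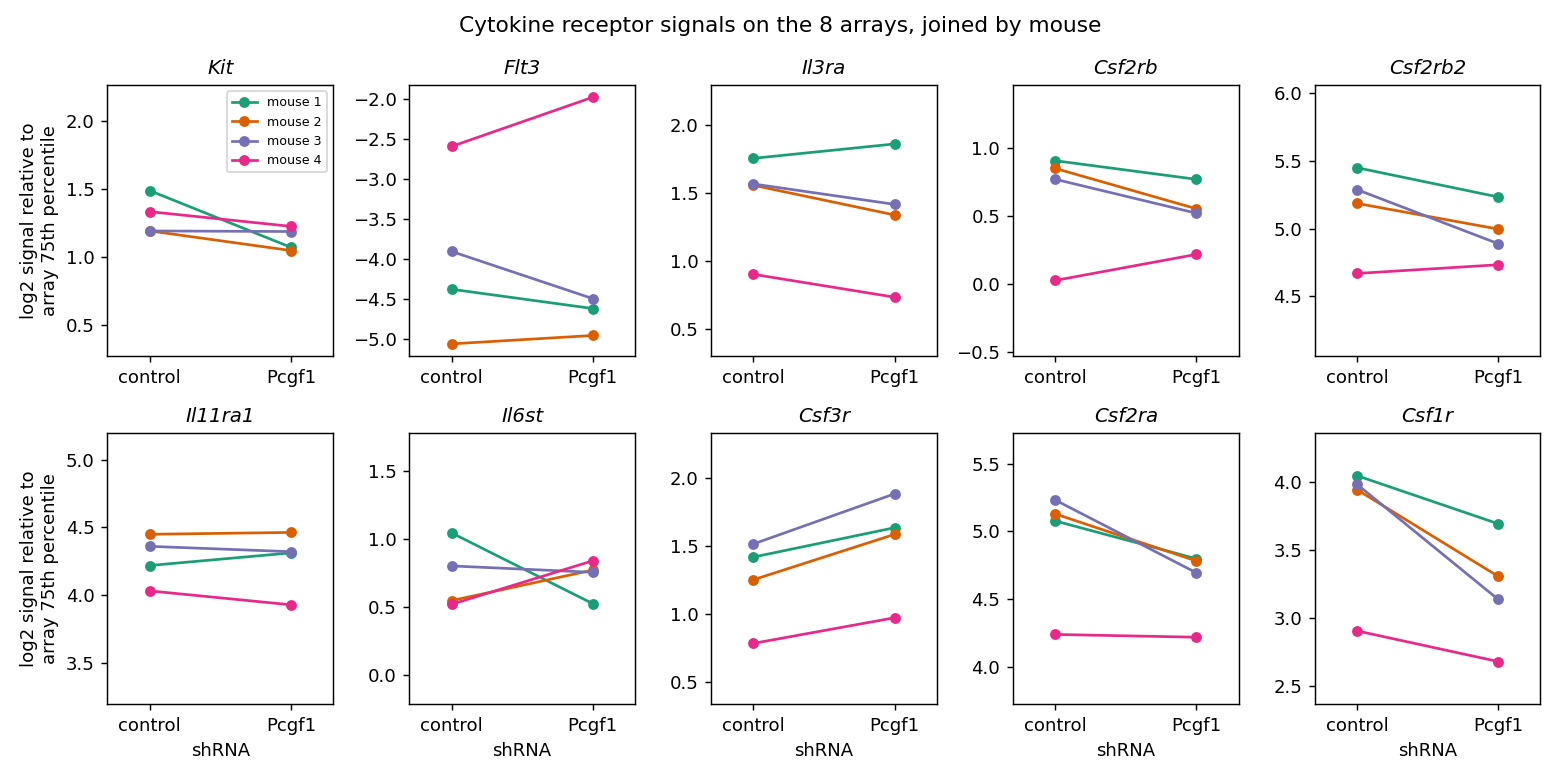
Log2 signal of the 10 receptor genes (vertical axes, relative to the 75th percentile of the array; each panel spans at least 2 log2 units, Flt3 more) with the control and the Pcgf1 shRNA (horizontal axes), on the brightest probe of each gene. Lines join the 2 cultures of a mouse; Csf3r goes up and Csf1r goes down in 4 of 4 mice, and mouse 4 has the lowest level in both groups for 7 genes and the highest for Flt3.

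Promoter sequences are given for 3 receptors that stand for the patterns described below: Csf3r, which read higher in every mouse, Csf2ra, which read lower in every mouse, and Flt3, which differed most between mice. Each line is 300 bases of RefSeq sequence of GRCm38.p6, from 250 bases before to 50 bases after a transcript start, 5′ to 3′ on the strand of the gene; capitals mark matches to the motifs named below.
Csf3r: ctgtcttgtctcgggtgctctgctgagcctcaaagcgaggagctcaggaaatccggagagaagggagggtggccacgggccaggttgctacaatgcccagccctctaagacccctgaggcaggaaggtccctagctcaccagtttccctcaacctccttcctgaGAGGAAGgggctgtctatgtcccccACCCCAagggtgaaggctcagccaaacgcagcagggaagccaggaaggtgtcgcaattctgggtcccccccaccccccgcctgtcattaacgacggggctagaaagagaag
Flt3: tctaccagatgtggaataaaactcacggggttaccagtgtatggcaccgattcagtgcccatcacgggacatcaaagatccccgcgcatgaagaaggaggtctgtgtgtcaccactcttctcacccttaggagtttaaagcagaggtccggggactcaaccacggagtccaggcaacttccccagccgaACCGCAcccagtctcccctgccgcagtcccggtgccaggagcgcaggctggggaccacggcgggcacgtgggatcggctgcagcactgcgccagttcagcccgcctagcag
Csf2ra: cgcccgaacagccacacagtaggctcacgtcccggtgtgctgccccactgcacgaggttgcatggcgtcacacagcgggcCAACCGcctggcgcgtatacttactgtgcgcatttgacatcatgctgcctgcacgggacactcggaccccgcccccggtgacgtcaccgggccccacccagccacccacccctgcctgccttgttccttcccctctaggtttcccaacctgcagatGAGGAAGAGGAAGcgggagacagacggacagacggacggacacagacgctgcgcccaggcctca
The windows are chr4:126024409-126024708 (plus strand), chr5:147400440-147400739 (minus strand) and chr19:61228369-61228668 (minus strand).

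These windows were searched on both strands for 5 short motifs, and windows were given for 8 of the 10 receptors. Kit and Il11ra1 had 2 windows each, 10 windows in all. A receptor was counted when any of its windows matched, whereas the shares over all promoters are per window. The letters TGNGGT, a broad form of the RUNX motif, were searched with any base at N. They stood 61 to 56 bases before the start in both Csf3r and Flt3, in each case on the opposite strand. On that strand Csf3r read TGGGGT and Flt3 read TGCGGT, so these matches differ at N. Il3ra, Csf2rb2 and Il11ra1 also held TGNGGT, which occurs in 45.8% of all 32851 promoter windows of this length. A narrower RUNX motif was not searched. Csf3r also held the PU.1 letters GAGGAAG, which 13.6% of windows hold, from 86 to 80 bases before the start. Csf2ra held 2 such matches that share 1 base, just before its start, and the Myb letters CAACNG (35.0% of windows). The PU.1 letters were also present in Kit, Csf2rb2 and Il11ra1. The C/EBP letters TTGCNNAA (10.8% of windows) were found in Il3ra, and the GATA letters AGATAA (11.2%) in 0 of the 8. A match says that the letters are present, not that a factor binds.

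Kit, the SCF receptor (chromosome 5, 75574987 to 75656722), was measured with the most spots. Its probe is printed 10 times on each array, and the 10 spots of an array had an SD of 0.06 to 0.09. The array means were 1.49, 1.19, 1.19 and 1.33 with the control shRNA in mice 1 to 4, and 1.07, 1.05, 1.19 and 1.23 with the Pcgf1 shRNA. Only the control culture of mouse 1 stood clearly above the rest, so the change was −0.42 in mouse 1, −0.14 in mouse 2, −0.0042 in mouse 3 and −0.11 in mouse 4. Spot by spot, the array with the Pcgf1 shRNA was lower for 10 of 10 spots in mice 1, 2 and 4 and for 5 of 10 in mouse 3. The spots of an array are repeats of 1 RNA sample and add nothing to n. Over the 4 mice Kit stood at 89.0% of control (log2 change −0.17, SE 0.09, adjusted p 0.536), and the 95% interval ran from 76.5% to 103%. The change was −0.22 without mouse 3, −0.086 without mouse 1 and −0.068 with median centring.

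**Figure D2:**
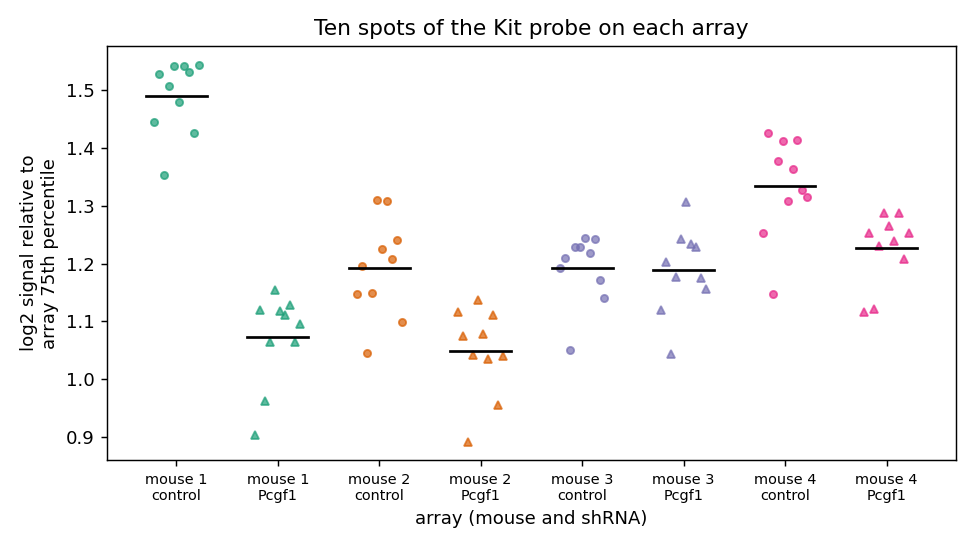
Log2 signal of the 10 spots of the Kit probe (vertical axis, relative to the 75th percentile of the array) on each of the 8 arrays (horizontal axis); circles are control and triangles Pcgf1 shRNA cultures, and black lines are the array means. The means lie between 1.05 and 1.49, and the 2 sets of spots are fully apart in mouse 1 and intermixed in mouse 3.

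Flt3, the Flt3 ligand receptor (chromosome 5, 147330741 to 147400489), was dim but above background on all 8 arrays and differed more between mice than between shRNAs. It read −4.38, −5.07, −3.91 and −2.59 with the control shRNA in mice 1 to 4, and −4.62, −4.96, −4.50 and −1.98 with the Pcgf1 shRNA. Both cultures of mouse 4 lay above all 6 cultures of the other mice, at 117 and 217 units of processed signal against 15.5 to 38.5. Relative to the mean of mice 1 to 3 the mouse 4 signal was 3.63-fold higher in the control and 6.57-fold higher in the Pcgf1 shRNA culture. The change within a mouse was −0.24, 0.10, −0.59 and 0.62, with a mean of −0.03 (SE 0.74, adjusted p 0.994; 0.952 in the blocked fit). Its 95% interval of 30.5% to 315% of control excludes neither a halving nor a doubling; with mouse as a block it was 70.4% to 137%. The estimate was −0.24 without mouse 4, 0.16 without mouse 3 and −0.44 with weighted arrays. Across the 8 arrays Flt3 had Pearson r of −0.94 to −0.65 against 7 of the other receptors, and of 0.057 and 0.33 against Il6st and Kit. The negative values rest on mouse 4: over the 6 arrays of mice 1 to 3, r was −0.58 against Il11ra1 and 0.16 to 0.39 against the other 6.

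The IL-3 receptor consists of the alpha chain Il3ra and a beta chain. In the mouse the beta chain is either Csf2rb, shared with the GM-CSF and IL-5 receptors, or Csf2rb2, which serves IL-3 alone. Il3ra (chromosome 14, 14345912 to 14355493) read 1.76, 1.56, 1.57 and 0.90 with the control shRNA, and 1.86, 1.34, 1.42 and 0.73 with the Pcgf1 shRNA. The 2 cultures of a mouse stayed within 0.22 of each other, while mouse 4 lay below the others. The change was −0.11 (SE 0.26, adjusted p 0.912; 95% interval 61.3% to 140% of control, and 80.7% to 107% with mouse as a block). It was −0.18 without mouse 1, −0.071 without mouse 2 and −0.0074 with median centring, and did not pass.

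The beta chains lie next to each other on chromosome 15, Csf2rb2 at 78282507 to 78305721 and Csf2rb at 78325800 to 78351001. They are close paralogues, and the sources used here do not give the bases that each probe reads, so a signal shared by both genes was not tested. Csf2rb2 read 5.45, 5.19, 5.29 and 4.67 with the control shRNA, and 5.23, 5.00, 4.89 and 4.73 with the Pcgf1 shRNA. Csf2rb read 0.91, 0.85, 0.77 and 0.02, and 0.77, 0.55, 0.52 and 0.22, on the brighter of its 2 probes. Both were lower with the Pcgf1 shRNA in mice 1, 2 and 3 and higher in mouse 4 on those probes, by 0.06 and 0.19. The change was −0.18 for Csf2rb2 (SE 0.18, adjusted p 0.734) and −0.12 for Csf2rb (SE 0.21, adjusted p 0.867), and −0.11 on the second Csf2rb probe. Csf2rb2 changed by −0.27 without mouse 4, −0.11 without mouse 3 and −0.084 with median centring. Csf2rb changed by −0.23 without mouse 4, −0.065 without mouse 2, −0.081 without mouse 3 and −0.023 with median centring, and neither gene passed in any of these. With mouse as a block the 95% intervals were 75.1% to 103% and 77.3% to 109% of control.

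The IL-11 receptor pairs Il11ra1, which binds IL-11, with Il6st (gp130), the signalling chain of the whole IL-6 family. Il11ra1 (chromosome 4, 41760443 to 41769473) was the steadiest receptor within a mouse. It read 4.22, 4.45, 4.36 and 4.03 with the control shRNA, and 4.31, 4.46, 4.32 and 3.93 with the Pcgf1 shRNA. The mean change was −0.01 on this probe and 0.01 on the other, and the SD of the within-mouse change was 0.08 (adjusted p 0.990). The 95% interval of 79.7% to 124% of control, or 88.2% to 112% with mouse as a block, bounds any change. A near copy, Il11ra2, may share its probes.

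Il6st (chromosome 13, 112464070 to 112506860) differed between the 2 cultures of a mouse in either direction. It read 1.04, 0.55, 0.80 and 0.52 with the control shRNA, and 0.52, 0.77, 0.75 and 0.84 with the Pcgf1 shRNA. The change was −0.52, 0.23, −0.05 and 0.32 in mice 1 to 4, so mouse 1 opposed mice 2 and 4. The mean was −0.01 (SE 0.14, adjusted p 0.993), and 0.17 without mouse 1. Il6st and Kit were the receptors for which mouse as a block did not reduce the SE by much (0.14 and 0.15 without and with the block for Il6st, 0.09 for Kit in both).

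Csf3r, the G-CSF receptor of the granulocyte branch (chromosome 4, 126023441 to 126044975), read higher with the Pcgf1 shRNA in 4 of 4 mice. It was at 1.42, 1.25, 1.51 and 0.78 in the control cultures of mice 1 to 4, and at 1.63, 1.59, 1.88 and 0.97 in the Pcgf1 shRNA cultures. The within-mouse changes of 0.22, 0.33, 0.37 and 0.19 had an SD of 0.09, while the mouse means spread with an SD of 0.36, so the groups overlapped. The mean change was 0.28, or 121% of control, and did not pass (SE 0.22, adjusted p 0.672; in the blocked fit SE 0.07 and adjusted p 0.0834). The 95% interval was 84.9% to 173% of control without the block and 107% to 137% with it. Either slide alone gave 0.28. Of all genes 15.6% were higher in 4 of 4 mice.

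Most measured genes of a fixed neutrophil list had estimates of the opposite sign. Of the 8 measured, 1 (Ngp) fell without a block, against 0.168% of all genes. With mouse as a block 6 fell and 1 (Cxcr2) rose, against 2.42% and 2.91% of all genes. The list median was −1.79. Ngp and Ltf were well above background on 0 of 4 arrays with the Pcgf1 shRNA, so their values there are bounds. The summed signal of the list, in units of the array's 75th percentile, was 85.0 to 233 in the control and 12.0 to 45.2 in the Pcgf1 shRNA cultures. The part of neutrophil content in the Csf3r value was not tested.

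Csf2ra, the alpha chain that binds GM-CSF (chromosome 19, 61217191 to 61228461), read lower in 4 of 4 mice, in mouse 4 by 0.02 only. Its levels were 5.08, 5.13, 5.23 and 4.24 with the control shRNA, and 4.80, 4.78, 4.70 and 4.22 with the Pcgf1 shRNA. In mice 1 to 3 every Pcgf1 shRNA culture lay below every control culture, whereas both cultures of mouse 4 lay below all of them. The mean change was −0.30, or 81.5% of control (SE 0.23, adjusted p 0.669; 0.149 in the blocked fit), with a 95% interval of 56.1% to 118% and of 68.8% to 96.5% with the block. Without mouse 4 it was −0.39 (adjusted p 0.0601, or 0.0895 with the block), which did not pass either, and with median centring it was −0.20 and did not pass.

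Csf1r, the M-CSF receptor of monocytes and macrophages (chromosome 18, 61105572 to 61131139), had the largest estimated change of the 10. It read 4.05, 3.95, 3.99 and 2.90 with the control shRNA, and 3.69, 3.31, 3.14 and 2.68 with the Pcgf1 shRNA. The controls of mice 1 to 3 lay close together and above all 5 other arrays. The within-mouse changes were −0.35, −0.64, −0.85 and −0.23, and their mean of −0.52 corresponds to 69.9% of control (SE 0.30, adjusted p 0.549; in the blocked fit SE 0.12 and adjusted p 0.0667). The 95% interval was 43.4% to 112% of control, and 57.1% to 85.5% with the block. Of all genes 8.12% had a larger absolute change, and 16.2% were lower in 4 of 4 mice.

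All 3 Csf1r probes were lower in 4 of 4 mice. The other 2 gave changes of −0.47 and −0.44, and in the blocked fit over all probes the limma adjusted p was 0.0653, 0.0563 and 0.0562 from the brightest to the dimmest. Mice 1 and 2, which shared a slide, gave −0.50, and mice 3 and 4 gave −0.54. The estimate was −0.61 without mouse 4 (adjusted p 0.0910) and −0.41 without mouse 3.

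Monocyte and macrophage markers had estimates of the same sign as Csf1r. Of the 9 measured genes of a fixed list 0 passed without a block. With mouse as a block 4 (among them Klf4, Irf8 and Ccr2) fell, against 2.42% of all genes. The change was below 0 for 9 of 9, against 49.5% of all genes, and the median was −0.52. Their summed signal was 45.1 to 84.6 in the control and 40.7 to 61.4 in the Pcgf1 shRNA cultures, with the lowest value of each group in mouse 4. All 9 markers were well above background on all 4 control arrays, and 8 of them on all 4 arrays with the Pcgf1 shRNA. Their part in the Csf1r value was not tested.

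**Figure D3:**
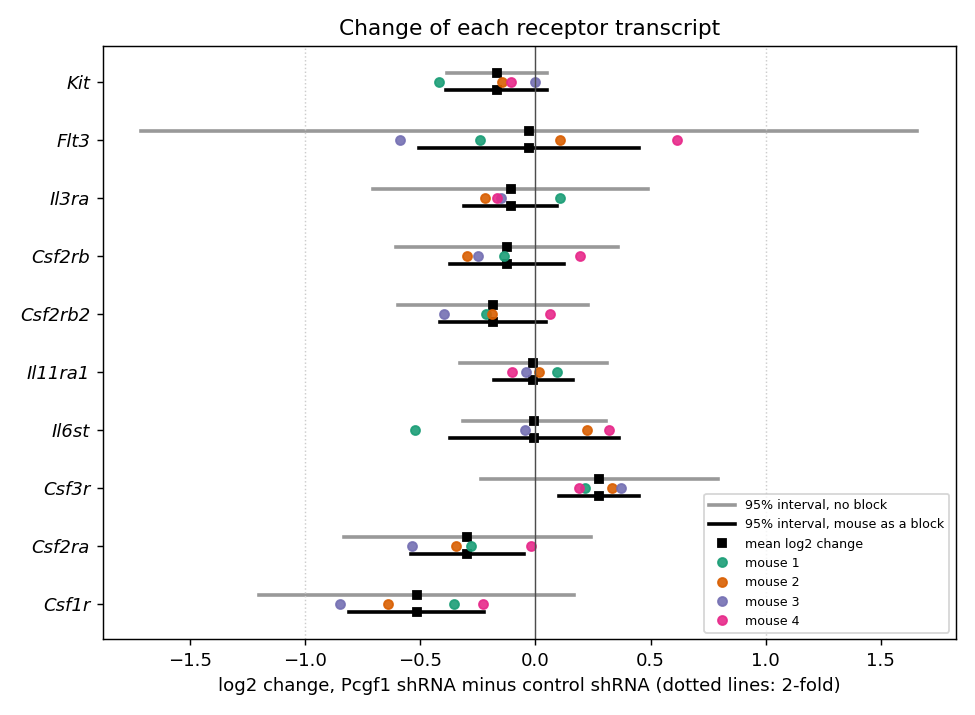
Log2 change with the Pcgf1 shRNA (horizontal axis) for the 10 receptors: coloured points are the 4 mice, black squares the mean, grey bars the 95% interval without a block and black bars that with mouse as a block. The grey bars all cross 0; the black bars of Csf3r, Csf2ra and Csf1r do not, yet none of the 3 passes after adjustment over all genes.

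Csf3r and Csf1r, the receptors of the granulocyte and the monocyte branch, went in opposite directions in each mouse. The change of Csf3r minus that of Csf1r was 0.57, 0.97, 1.22 and 0.41 in mice 1 to 4 (mean 0.79, SD 0.37). The pair was chosen after its values were seen, so the difference is given without a test.

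The mouse of origin was the larger source of spread for most receptors. Mouse 4 had the lowest level of the 4 control cultures for 8 receptors and of the 4 Pcgf1 shRNA cultures for 7. For Csf1r its control culture was 2.13-fold lower than the mean of the other controls, for Csf2ra 1.87-fold, for Csf2rb 1.76-fold and for Il3ra 1.65-fold. Across the 8 arrays Csf1r, Csf2ra, Csf2rb and Csf2rb2 varied together, with Pearson r of 0.90 to 0.96 for the 6 pairs, whereas Csf3r and Csf1r had r of 0.41. Over the 6 arrays of mice 1 to 3 the 6 pairs had r of 0.73 to 0.96, and Csf3r and Csf1r had r of −0.81. The arrays share mice, and the 2 Csf2rb genes may share signal. Each of these r includes the change between the shRNAs as well as the spread between mice. For 8 of the 10 receptors mouse as a block reduced the SE of the change, 1.94-fold to 3.78-fold.

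The genes whose pattern over the 8 arrays was most like that of the 3 receptors with the smallest p in the fit without a block (Kit, Csf1r and Csf2ra) were listed among 11711 other genes with a symbol. For Csf1r they were Itgam, which encodes the integrin chain CD11b of myeloid cells (r = 0.99), Apobr (0.99) and Sgpl1 (0.99), and 481 genes had r above 0.9. For Csf2ra they were Nlrx1, Ndel1 and Atp6v1b2 (0.99 each), with 388 genes above 0.9. For Kit they included Mief2 (0.93) and Plekhf2 (0.89), and 2 genes exceeded 0.9. Both cultures of mouse 4 read lowest for Csf1r and Csf2ra, and r without mouse 4 is not given for the listed genes. With 8 arrays of 4 mice these patterns are descriptions only.

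Of 10 genes for ligands of these receptors 5 were bright enough to be tested, and the probes of Kitl, Il3, Csf2, Csf3 and Il5 were above background on 0 of 8 arrays. SCF, Flt3 ligand, IL-11 and IL-3 were present in the medium as proteins, which the arrays do not measure. Of the 5 tested 0 rose or fell in either fit. All 5 had estimates below 0, against 49.5% of all genes, with a median of −0.25 (−0.15 with median centring). Flt3l changed by −0.35 (limma adjusted p 0.465), Il6 by −0.45 (0.362), Il11 by −0.23 (0.417) and Il34, a second ligand of Csf1r, by −0.10 (0.850). Il11 and Il34 were dim, with control means of −4.00 and −4.49. Their SE without a block was 0.10 and 0.15, against a median SE of 0.13 over all genes.

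Of 22 measured receptors for other cytokines 0 passed without a block. With mouse as a block 2 rose and 1 fell, against 2.91% and 2.42% of all genes. The list median was −0.13, and −0.030 with median centring. Il5ra, which pairs with Csf2rb to bind IL-5, was 0.51 higher (limma adjusted p 0.103, 0.0476 with the block). It read −4.59 to −4.13 in the control and −3.99 to −3.72 in the Pcgf1 shRNA cultures. These groups did not overlap, as for 7.16% of all genes. The transcript was dim (SE 0.12 without a block, against a median SE of 0.13 over all genes). Pdgfrb, a receptor tyrosine kinase of the same class as Kit, was 0.69 higher (0.244, 0.0208 with the block). Il1rl1, the IL-33 receptor of mast cells, changed by −0.56 and passed only with the block (0.658, 0.0477). Il10ra (−0.39) and Il13ra1 (−0.36) did not pass in either fit.

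Few of the genes that carry the signal inward passed the test. Of 28 measured kinases, STAT factors, adaptors and feedback regulators 0 passed without a block and 1 fell with it, against 2.42% of all genes. The list median was −0.07, and 0.043 with median centring. Sos1 (0.32), Pik3cd (0.35) and Jak3 (−0.24), which were among the 4 smallest p of the list, did not pass in either fit.

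**Figure D4:**
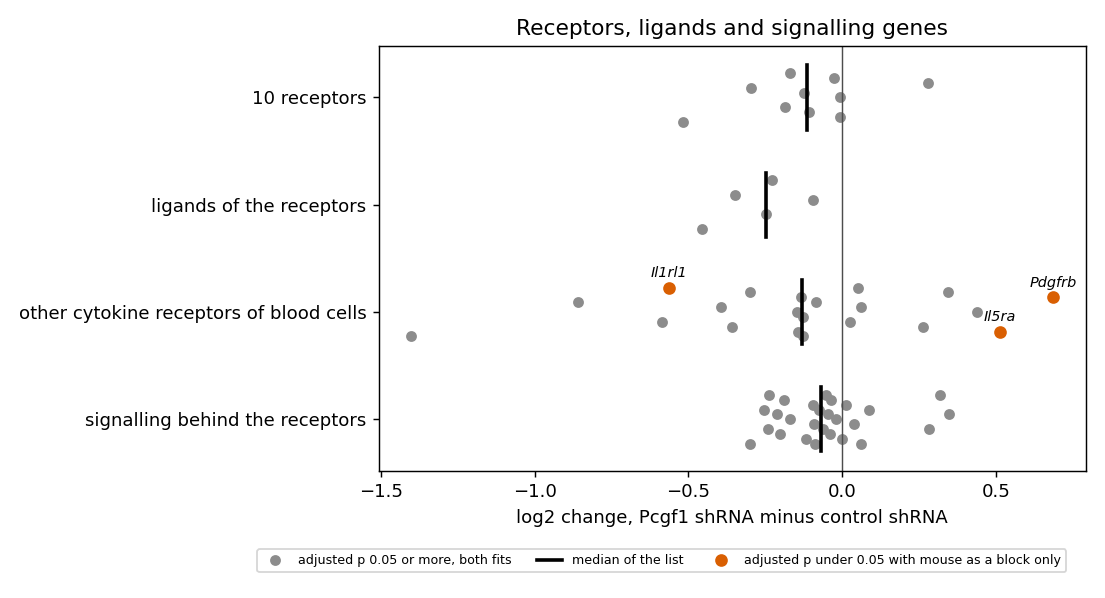
Log2 change with the Pcgf1 shRNA (horizontal axis) for the 10 receptors and for the tested ligands, other cytokine receptors and signalling genes (rows); each point is a gene, genes not reported are not drawn, its height in a row has no meaning, and black bars are medians of the whole lists. Orange genes (Il5ra, Pdgfrb and Il1rl1) passed with mouse as a block only, and 0 genes of these lists passed without it.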

How the data were processed

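Each deposited spot file lists processed intensity per spot, background-subtracted but not normalized between arrays per the file headers; per the submitters' processing notes they were made with Agilent Feature Extraction 10.1. A value table by the authors, used as an alternative, is on a log2 scale and, set against the spot files, was centred on each probe's median with 1 shift per array. From mouse 1 to mouse 4, control before Pcgf1 shRNA, the medians of its columns are 0.05, 0.10, 0.11, −0.05, 0.10, −0.11, −0.13 and −0.20. How its shifts were chosen is not stated.

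The log2 processed signal of each array was shifted so that its 75th percentile was 0, 242 non-uniform spot values were left out and spots of a probe were averaged. Probes well above background on all 4 arrays of a group were kept, and the brightest stood for a gene. Symbols came from RefSeq accessions of GRCm38.p6 (24375 of 41174 probes). The test was limma 3.58.1 (R 4.3.3; two-sided, Benjamini-Hochberg over all genes); the script was tested on simulated data. Cultures of a mouse came from 1 animal and deviated together (r of 0.41 to 0.64 over genes), so a fit with mouse as a block is also given. Mice 1 and 2 shared 1 slide and scan, mice 3 and 4 the other. Alternatives covered block, slide, scaling, normexp (on median spot signals), filter, probe choice, weights and left-out mice. The receptors, lists, motifs and the rule for naming genes (all receptors, the 4 smallest p of each list and those that passed) were chosen with earlier results of these data known. The lists were ligands, other cytokine receptors, signalling genes and markers of HSPCs, neutrophils, monocytes and macrophages, mast cells and basophils, erythroid cells, B cells, T cells and stroma. They are described by counts and medians, without a set test. Some genes of these lists and patterns are not reported here by name, but counts and medians include them.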

Additional observations from a re-analysis of the deposited data

Results flagged for a closer look

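In groups of 4 arrays a value was marked when its gap to the nearest other value was too large a part of the range (Dixon's test at the 95% level). Of 54 groups looked at 7 were marked, and all 7 were cultures of mouse 4; chance marks about 1 in 20, and the marked genes share arrays. With the control shRNA, Csf2ra read 4.24 against 5.08 to 5.23 in the other mice, Csf1r read 2.90, 1.68 and −3.50 on its 3 probes against at least 3.95, 2.57 and −2.60, and Csf2rb read 0.025 and −0.54 on its 2 probes against at least 0.77 and 0.16. Flt3 with the Pcgf1 shRNA was marked on the high side, at −1.98 against −4.96 to −4.50. The same control culture had the lowest summed signal of the monocyte and macrophage markers, 45.1 against 76.7 to 84.6; the part of this in the receptor values was not tested.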

How the results depend on the processing

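The count of receptors called was 0 under each of 18 alternatives, and the direction of Kit, Il3ra, Csf2rb, Csf2rb2, Csf3r, Csf2ra and Csf1r was the same under all 20, which include each slide alone (added after the data were seen). Csf1r ranged from −0.61 to −0.41 and Csf3r from 0.25 to 0.38. The replicate block (mouse) changed no receptor call. Changes near 0 turned sign without a call. Flt3 was 0.073 with median centring, 0.067 with quantile normalization, 0.043 without mouse 1, 0.16 without mouse 3 and 0.013 on slide 2 (−0.24 to 0.16 over left-out mice), and array weights gave −0.44. Il11ra1 was 0.092 with median centring, 0.090 with array weights, 0.0042 with normexp, 0.0029 with the mean of probes, 0.0014 without mouse 3, 0.022 without mouse 4 and 0.053 on slide 1 (−0.043 to 0.022 over left-out mice). Il6st was 0.095 with median centring, 0.17 without mouse 1, 0.0081 without mouse 3 and 0.14 on slide 2 (−0.11 to 0.17 over left-out mice). These values without a mouse hold with and without the block, and the cause was not tested. Median centring moved the median of all genes to 0.10. Over all genes 132 passed, 921 with mouse as a block, 72 with normexp, 1229 with array weights and 0 without the filter (2199 at an unadjusted p under 0.05), where more genes are tested; leaving out mice 1 to 4 in turn gave 1, 0, 0 and 363 by limma (unadjusted 1673, 1000, 1089 and 3974), and with the block 284, 0 (2435 unadjusted), 306 and 145. Of the 132, 103 (78.0%) were higher; the share was 54.6% with mouse as a block, 66.7% with normexp and 60.2% with array weights. Pcgf1 lost its call without the filter (−1.36), on slide 1 (−1.40) and slide 2 (−1.31) alone, and without mouse 1, 2 or 3 (−1.38 to −1.34 over all left-out mice); with the block it lost it only without mouse 2. Flt3 lay nearest to background, and its SE without a block was 0.74, or 0.30 without mouse 4.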

Other observations

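Markers of other cell types that the cultures could hold also differed in level, and are given here as values. Of all genes 0.763% passed without a block and 5.32% with mouse as a block (2.91% rose and 2.42% fell). Of 7 mast cell and basophil markers Tpsb2 fell. In this list 4 had a change below 0 and 3 above 0 (−1.71 to 0.59, median −0.13). Of 6 erythroid markers 0 passed without a block and 2 fell with mouse as a block (median −0.95). Of 4 measured T cell markers Lck rose (0.91, limma adjusted p 0.0339) and Thy1 passed only with mouse as a block (0.88, 0.0233). The changes were above 0 for 2 of the 4 and below 0 for 2 (lowest −0.27, list median 0.38). Cd3d, Cd3g and Cd8a were above background on 0 arrays. Of 4 measured B cell markers 0 passed in either fit (median −0.29), and Pax5 and Ebf1 were above background on 0 arrays. Of 7 stroma markers 2 were measured. Pdgfrb rose with mouse as a block (0.69), while the other had a change of −0.34 and did not pass. Lck and Thy1 were chosen after their values were seen.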
